A study of Mus musculus with 17 samples.

Results

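The 10 genes of the Notch pathway followed here were measured in the postnatal subventricular zone (SVZ) of the mouse forebrain: the receptors Notch1, Notch2 and Notch3, the ligands Dll1, Dll3 and Jag1, and the nuclear factors Hes1, Hes5, Hes6 and Hey1. The 10 members were found by gene name in the scanner files, where 15 probes carry their names, and all 10 passed the filter on dim probes, of 26447 genes tested. The mice were of the CD1 strain, and progenitors of the dorsal or the lateral wall of the SVZ were electroporated in the living animal at postnatal day 1. GFP-positive cells of both walls were sorted by flow cytometry at 6 times from 8 hours to 14 days later. Each of the 17 arrays of 2 colours carried a dorsal sample in Cy3 (green) and a lateral sample of the same time in Cy5 (red). The 8-hour and 2-day points had 2 arrays each, those of 1, 4 and 7 days had 3 each, and that of 14 days had 4. The labels call the arrays of a time biological replicates. The dyes were never swapped, so a constant dye effect of a probe stays in a dorsal-lateral difference and cancels in changes with time. The labels also call the molecule polyA RNA for the dorsal and total RNA for the lateral sample. Wall, dye and this label therefore cannot be told apart. The promoter of the GFP plasmid and the number of animals behind a sample are not given in the sources used here.

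Notch receptors sit in the membrane of one cell and are activated by Delta or Jagged ligands on a neighbouring cell. Proteolysis then frees the receptor's intracellular domain, which enters the nucleus, binds the DNA-binding protein RBPJ and switches on repressors of the Hes and Hey families. In neural tissue this signal is known for keeping progenitors and astrocyte-like stem cells from becoming neurons, while cells on the way to becoming neurons express Delta ligands. Hes6 is unlike its relatives: it is known to oppose Hes1 and to be expressed in differentiating cells. Dll3 is unusual among the ligands, since it acts inside the cell and does not activate receptors of neighbours. In bulk samples such as these, fewer cells of a type and less RNA per cell cannot be told apart.

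The binding core of RBPJ, the letters TGGGAA, was looked for on both strands in RefSeq promoter windows of GRCm38.p6 of 300 bases, 250 before and 50 after a listed start. Of all 32851 windows, 25.6% held the core and 3.79% held it at least 2 times. Windows were matched for 8 of the 10 members. None was matched for Hes1 and Hey1, so these were not searched. Hes5 alone among the 8 held the core, with 2 matches. Among the other pathway genes described below, Hey2, Lfng and Rbpj also held 2. Hes5 is shown as the member that holds the core, and Hey2 as the relative of Hey1 that holds it and was called over time here, from 250 bases before the start to 10 after it, on the strand of the gene and with the core or its reverse complement (TTCCCA) in capitals. The Hes5 gene record itself begins upstream of the start used for its window, at 154960626, so the stretch shown lies within that record. A match describes letters and is not a measured binding site.
Hes5, chr4:154960673-154960932, plus strand: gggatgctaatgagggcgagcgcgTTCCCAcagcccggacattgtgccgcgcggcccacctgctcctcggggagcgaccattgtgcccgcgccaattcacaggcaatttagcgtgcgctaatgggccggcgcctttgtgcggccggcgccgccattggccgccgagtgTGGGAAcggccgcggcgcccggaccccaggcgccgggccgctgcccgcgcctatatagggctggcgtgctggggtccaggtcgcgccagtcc
Hey2, chr10:30842774-30843033, minus strand: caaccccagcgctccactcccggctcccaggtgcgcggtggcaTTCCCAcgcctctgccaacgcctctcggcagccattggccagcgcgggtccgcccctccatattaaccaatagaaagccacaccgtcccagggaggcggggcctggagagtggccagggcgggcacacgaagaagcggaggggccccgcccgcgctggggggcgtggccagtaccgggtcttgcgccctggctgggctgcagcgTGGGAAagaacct

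Levels are log2 fluorescence intensity after normalization, so a step of 1 is a doubling of signal, and levels of different genes come from different probes and are not set against each other. The file headers place the probes on the mm9 build. The receptor probes lie at chr2:26314772-26314830 (Notch1), chr3:97953914-97953973 (Notch2) and chr17:32257848-32257907 (Notch3), and the ligand probes at chr17:15504623-15504682 (Dll1), chr7:29078763-29078822 (Dll3) and chr2:136907433-136907492 (Jag1). The probes of the nuclear factors lie at chr16:30065983-30066278 (Hes1, a span of 296 bases), chr4:154336347-154336406 (Hes5), chr1:93308264-93308323 (Hes6) and chr3:8663432-8663491 (Hey1). Each of the other 9 members was well above background in at least 31 of 34 samples. The Hes1 probe was well above background in 6 of 17 dorsal and 4 of 17 lateral samples.

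The share of probes well above background ran from 41 to 76.7% over the dorsal and from 56.4 to 79.4% over the lateral samples, and no spot was saturated. The number of arrays limits the precision. Replicate 1 of 1 day and replicate 2 of 14 days stood apart, with a median correlation to the other arrays of 0.69 and 0.77 over genes, against 0.85 to 0.92 for the rest. The arrays came from 5 slides, each with a scan session of its own: 1 day and 14 days each filled a slide of their own, so time and slide cannot be told apart for them, while 3 slides held several of the other times. All 10 radial glia and astrocyte markers were well above background in every sample of 8 hours, 1 day, 2 days and 14 days. A list of 6 dorsal wall genes (such as Emx1 and Pax6) had mean levels of 11.13 to 11.19 in the dorsal and 7.98 to 8.63 in the lateral samples at 8 hours, and 8.86 to 9.7 against 8.64 to 9.57 at 14 days, where the walls overlapped.

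**Figure D1:**
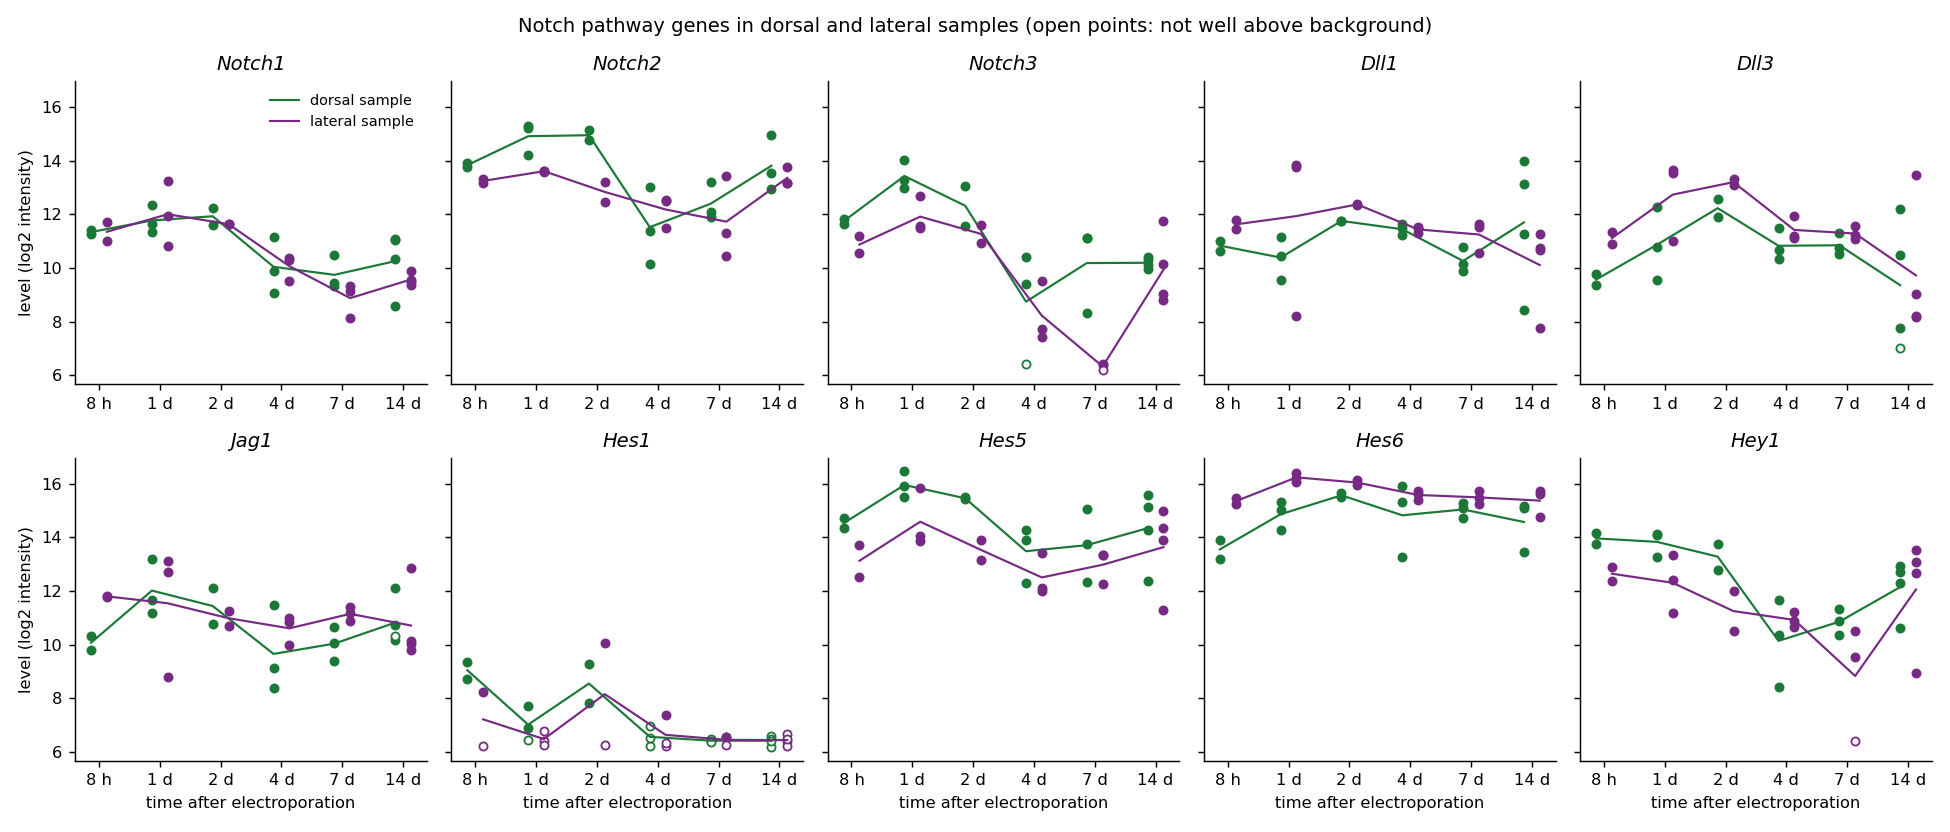
Level of each member (log2 intensity) against time after electroporation in each dorsal (green) and lateral (purple) sample; lines join the means of a time, and open points were not well above background. Notch1, Notch2, Notch3 and Hey1 were high from 8 hours to 2 days and lower at 4 and 7 days, and Hes1 was near background from 4 days on.

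In the mean of both walls, 4 of the 10 members differed over the 6 time points (limma F test, Benjamini-Hochberg adjusted p under 0.05): Notch1, Notch2, Notch3 and Hey1, against 7.48% of all genes called in the same test. The median range of the members' time means was 2.34, against 1.37 for all genes. All 4 were high at 8 hours to 2 days and low at 4 and 7 days. In each of the 4, every one of the 6 arrays of 4 and 7 days lay below every one of the 7 arrays of 8 hours to 2 days, a split chosen after the values were seen that holds for 2.74% of all genes in that direction. The dorsal samples alone showed this order in the same 4 members (2.36% of all genes) and the lateral samples in 2, Notch1 and Notch3 (1.36%). No member showed the opposite order in the mean of both walls, the dorsal or the lateral samples, where 2.91, 1.51 and 2.53% of all genes did.

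Notch3, a receptor known in radial glia and in the mural cells of vessels, had the widest measured range of the members. Its dorsal level was 11.64 and 11.84 (8 hours), 14.01, 13.28 and 12.98 (1 day), 11.56 and 13.07 (2 days), 9.39, 10.4 and 6.43 (4 days), 11.12, 11.12 and 8.3 (7 days) and then 10.12, 10.28, 10.39 and 9.97 (14 days). Its lateral level was 11.18 and 10.56 (8 hours), 12.67, 11.49 and 11.57 (1 day), 10.92 and 11.61 (2 days), 7.73, 9.5 and 7.43 (4 days), 6.38, 6.42 and 6.18 (7 days) and then 11.75, 10.15, 9.03 and 8.8 (14 days). The lateral samples of 7 days were the lowest and 2 of these 3 were not well above background, like the dorsal replicate 3 of 4 days. In both walls, no sample of 4 or 7 days reached the lowest sample of 8 hours to 2 days. Over time the measured mean of both walls spanned 4.41 log2 units, a size that includes the 2 dim lateral values of 7 days and is not an exact fold, from 12.67 ± 0.59 (SD, n = 3) at 1 day to 8.25 ± 0.88 (SD, n = 3) at 7 days (F test, limma, adjusted p = 0.00482). The lateral samples alone differed over time (adjusted p = 0.00371, with 4.63% of all genes called), and for the dorsal samples alone the adjusted p was 0.0635.

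Notch1, the receptor best known for holding neural progenitors undifferentiated, followed the same course. Its dorsal level was 11.27 and 11.4 (8 hours), 12.33, 11.35 and 11.62 (1 day), 12.24 and 11.61 (2 days), 11.15, 9.08 and 9.89 (4 days), 9.42, 10.48 and 9.32 (7 days) and then 8.58, 11.06, 11.03 and 10.34 (14 days). Its lateral level was 11.7 and 10.99 (8 hours), 10.8, 13.25 and 11.95 (1 day), 11.64 and 11.62 (2 days), 10.38, 9.52 and 10.29 (4 days), 9.33, 8.15 and 9.14 (7 days) and then 9.35, 9.55, 9.9 and 9.47 (14 days). Every sample of 4 and 7 days lay below every earlier sample of the same wall, and the lateral samples of 14 days stayed below all lateral samples up to 2 days. The mean of both walls was 11.88 ± 0.38 (SD, n = 3) at 1 day and 9.31 ± 0.07 (SD, n = 3) at 7 days, a range of 2.58 (F test, limma, adjusted p = 0.00522). The lateral samples differed over time (adjusted p = 0.0134) but were not called with the other Notch1 probe (adjusted p = 0.0862) or with replicate number as a block (adjusted p = 0.0606). For the dorsal samples the adjusted p was 0.227. The other Notch1 probe, which overlaps the first by a base, gave a range of 2.57 in the mean of both walls (limma, adjusted p = 0.0117).

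Notch2, a receptor known in quiescent adult neural stem cells, was called less firmly. Its dorsal level was 13.9 and 13.76 (8 hours), 14.21, 15.28 and 15.23 (1 day), 15.14 and 14.75 (2 days), 13.02, 10.15 and 11.38 (4 days), 12.08, 13.19 and 11.9 (7 days) and then 14.97, 13.52 and 12.93 (14 days), where replicate 2 had no value. Its lateral level was 13.33 and 13.15 (8 hours), 13.62, 13.57 and 13.62 (1 day), 12.47 and 13.19 (2 days), 12.53, 12.5 and 11.5 (4 days), 11.31, 13.43 and 10.43 (7 days) and then 13.15, 13.75 and 13.16 (14 days). The dorsal samples of 4 and 7 days lay below all earlier dorsal ones, whereas in the lateral samples the 2 spans overlapped. The mean of both walls ranged over 2.41, from 14.25 ± 0.29 (SD, n = 3) at 1 day to 11.85 ± 0.8 (SD, n = 3) at 4 days (F test, limma, adjusted p = 0.0418). The call was lost in 19 of 31 alternatives, among them both other Notch2 probes (adjusted p = 0.158 and 0.458), which followed the main probe at r = 0.23 and 0.56 over the samples.

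In single steps between neighbouring times, none of the 10 members passed the threshold in any of the 5 steps, in which 1.43, 0.00378, 0.635, 0.0681 and 0.651% of all genes did, in order of time. The step from 2 to 4 days held the largest differences, with a median over the members of -1.66 against 0.1 over all genes. Notch3 differed by -3.31 ± 0.77 (SE) in that step (limma, adjusted p = 0.0781), Notch2 by -2.04 ± 0.59 (adjusted p = 0.182) and Notch1 by -1.73 ± 0.47 (adjusted p = 0.133). Between 8 hours and 14 days, none of the 10 members was called in the mean of both walls, where 3.1% of genes were. Notch1 differed by -1.43 ± 0.44 (SE; limma, adjusted p = 0.119) and Notch2 by 0.04 ± 0.59 (adjusted p = 0.984) over that span.

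The steps can be followed within the slides that held several times. On the slide with both arrays of 8 hours and 1 each of 4 and 7 days, Notch3 at 7 days was lower by a log2 change of -4.06, Notch1 by -2.11 and Notch2 by -2.37 than at 8 hours. On the other 2 such slides, the change from 2 to 4 days was -2.68 and -2.39 for Notch3, -1.17 and -2.32 for Notch1 and -1.04 and -2.65 for Notch2. All 9 of these values point down. Their direction follows from the order of the arrays given above for these 3 receptors and is not a separate result. With slide as a term in a fit of these 10 arrays alone, added after the data were seen, Notch3 (limma, adjusted p = 0.00327) and Notch1 (0.0128) were called over time, together with Hes5 (0.0136), Dll1 (0.0229) and Dll3 (0.0253). In that fit 14.8% of all genes were called (16.8% without the slide term), and Hey1 (adjusted p = 0.0976) and Notch2 (0.107) were not.

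**Figure D2:**
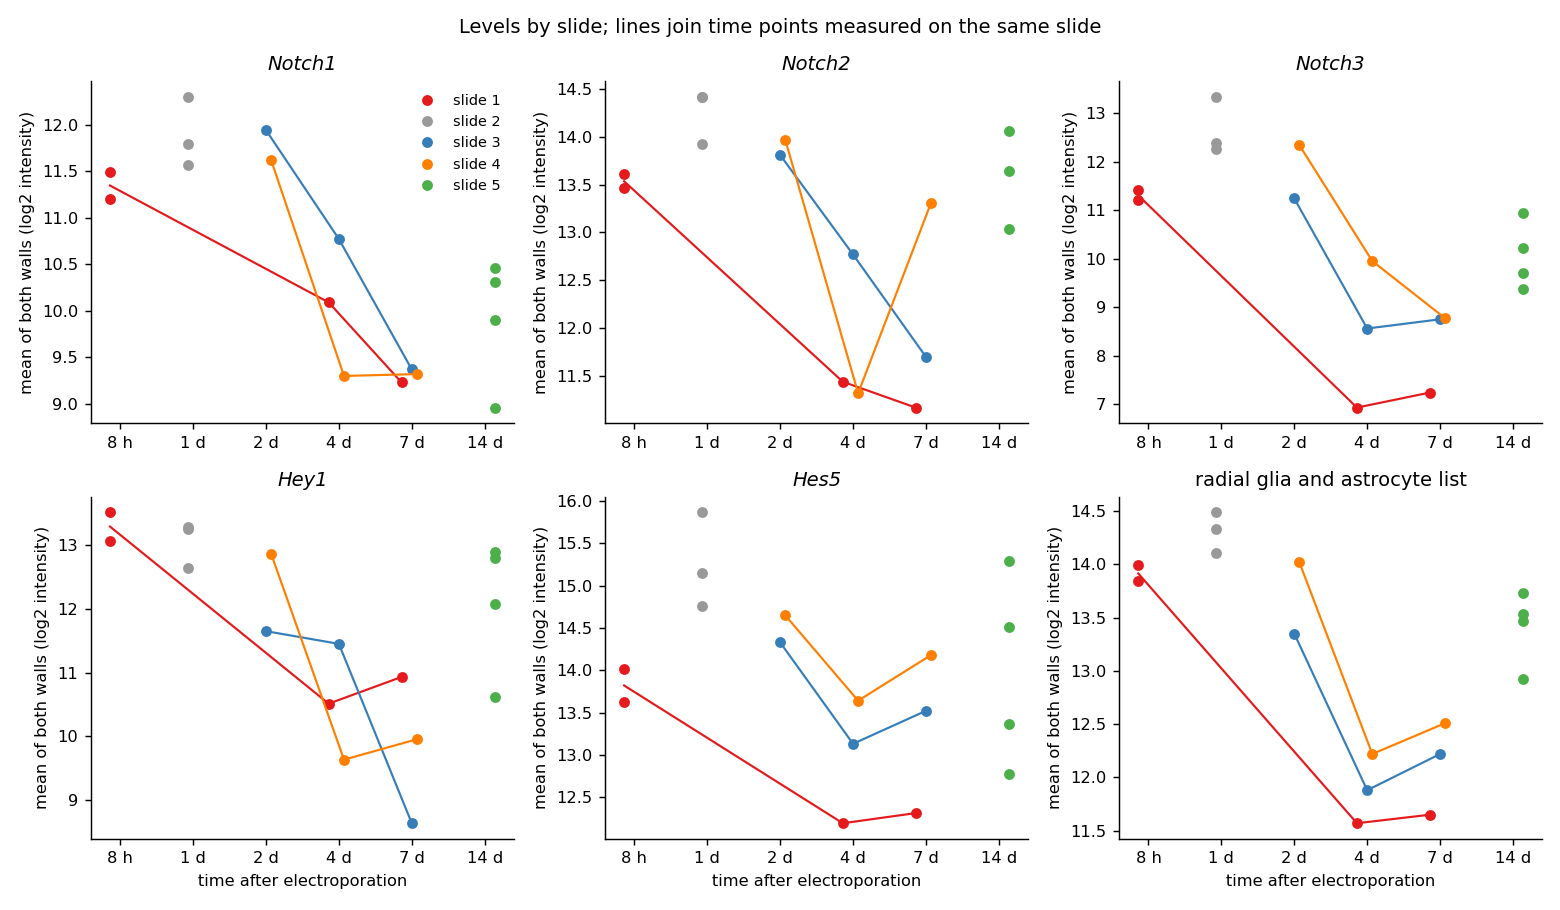
Mean of both walls (log2 intensity) on each array against time for 5 members and for the mean of 10 radial glia and astrocyte markers; colours mark the 5 slides, and lines join times measured on the same slide. On each of the 3 slides with several times, all 5 members and the marker list were lower at 4 days than at the earlier time of that slide.

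Markers of radial glia and astrocytes moved with the receptors. The mean level of these 10 genes was 14.31 to 15.23 in the dorsal samples of 8 hours to 2 days, 11.45 to 12.21 at 4 days, 12.02 to 12.74 at 7 days and 13.61 to 13.9 at 14 days. In the lateral samples it was 12.11 to 14.35 up to 2 days, 11.55 to 12.49 at 4 days, 11.29 to 12.27 at 7 days and 12.18 to 13.56 at 14 days. Of the 10, 8 differed over time in the mean of both walls, as did 7 of 10 neuroblast and neuron markers, against 7.48% of all genes. The neuronal list ran the other way, from 10.46 to 10.49 in the mean of both walls at 8 hours to 14.29 to 14.32 at 4 days and 12.54 to 13.8 at 14 days. The part of these cell types in the course of the receptors was not tested.

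The endothelial list of 10 genes had mean levels of 7.05 to 9.73 in the dorsal and 7.1 to 9.73 in the lateral samples. In order of time, 7, 6, 5, 5, 6 and 4 of these genes were well above background in every sample. Cdh5, Kdr and Tek at 4 days, Tek at 1 day and Emcn at 2 days were so in no sample. At 8 hours, 7 days and 14 days no gene was without such a sample. The dorsal level of the mural list of 8 genes was 9.5 to 9.66 (8 hours), 9.3 to 10.46 (1 day) and 9.2 to 9.93 (2 days). It was then 8.72 to 9.04 (4 days), 9.82 to 10.19 (7 days) and 10.5 to 11.49 (14 days). Its lateral level was 9.58 to 11.08, 8.91 to 9.17, 8.89 to 9.04, 8.34 to 9.14, 9.32 to 10.68 and 9.53 to 10.85 at these times. All dorsal samples of 8 hours to 2 days thus lay above those of 4 days. The lateral samples of 1 and 2 days overlapped the lateral ones of 4 days. The ependymal list of 6 genes was also lower at 4 days (dorsal 7.76 to 8.45, lateral 7.44 to 8.54) and in the lateral samples of 7 days (7.27 to 7.58) than at 8 hours (dorsal 12.41 to 12.54, lateral 10.59 to 11.64) and 2 days (12.18 to 13.69 and 11.71 to 12.27). At 1 day, where the receptors had their highest means, it lay at 9.92 to 12.61 and 8.56 to 10.99, in the dorsal samples of 7 days at 7.86 to 10.27, and at 14 days at 8.56 to 14.77 and 7.91 to 10.7. Of its 6 genes 2 were called over time in the mean of both walls, against 7.48% of all genes. Of 7 microglia markers 5 were called over time, against the same 7.48% of all genes. The list lay at 12.14 to 13.76 in the samples of 8 hours, 7.47 to 11.4 at 1 day and 12.81 to 14.32 at 2 days. It then lay at 8.34 to 11.82 at 4 days, 13.16 to 14.64 at 7 days and 8.65 to 15.58 at 14 days. The part of these lists in the course of the members was not tested.

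The ligands showed no change with time that passed the threshold over all arrays. The dorsal level of Dll3 was 9.37 and 9.76 (8 hours), 9.53, 12.27 and 10.78 (1 day), 12.57 and 11.88 (2 days), 10.67, 10.33 and 11.47 (4 days), 10.51, 11.29 and 10.73 (7 days) and then 7.76, 10.47, 7 and 12.19 (14 days). Its lateral level was 10.88 and 11.34 (8 hours), 11.01, 13.65 and 13.53 (1 day), 13.3 and 13.09 (2 days), 11.12, 11.92 and 11.2 (4 days), 11.55, 11.22 and 11.07 (7 days) and then 8.21, 13.48, 8.18 and 9.01 (14 days). The lateral samples of 8 hours and 2 days lay above the dorsal ones of the same time, and at the other times the walls overlapped. The mean of both walls was highest at 2 days (12.71 ± 0.32, SD, n = 2) and lowest at 14 days (9.54 ± 2.1, SD, n = 4), and the test missed the threshold (limma F test, adjusted p = 0.302). Its single samples at 14 days ran from 7 to 13.48, wider than at any other time. Without both arrays that stood apart the adjusted p was 0.0155, and on the 10 arrays that share slides it was 0.0253 with slide as a term.

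Dll1, the Delta ligand of neurogenic progenitors, was steady at 2 and 4 days and scattered at 1 and 14 days. Its dorsal level was 11.74 and 11.76 (2 days) and 11.48, 11.21 and 11.63 (4 days), and its lateral level 12.35 and 12.38 (2 days) and 11.3, 11.47 and 11.53 (4 days). At 1 day its lateral level was 8.19, 13.84 and 13.76, and at 14 days its dorsal level was 11.25, 13.98, 8.42 and 13.12. Over time the mean of both walls ranged over 1.31 (limma, adjusted p = 0.821). Jag1, a ligand of the Jagged class, ranged over 1.65 (adjusted p = 0.362), from a mean of 11.77 ± 0.68 (SD, n = 3) at 1 day to 10.13 ± 1.04 (SD, n = 3) at 4 days. Its other, dimmer probe followed it at r = 0.14 over the samples and was highest at 14 days, so the course of Jag1 depended on the probe.

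Among the nuclear factors, Hey1, a repressor switched on by Notch, was called over time. Its dorsal level was 14.15 and 13.76 (8 hours), 14.1, 14.13 and 13.25 (1 day), 12.79 and 13.76 (2 days), 11.66, 8.4 and 10.35 (4 days), 10.86, 10.35 and 11.34 (7 days) and then 12.3, 10.62, 12.71 and 12.93 (14 days). Its lateral level was 12.9 and 12.38 (8 hours), 12.41, 11.17 and 13.32 (1 day), 10.51 and 11.98 (2 days), 11.23, 10.86 and 10.66 (4 days), 6.41, 9.55 and 10.52 (7 days) and then 8.93, 13.53, 13.07 and 12.67 (14 days). The dorsal samples of 4 and 7 days lay below every earlier dorsal sample, and the lateral ones overlapped. The mean of both walls ranged over 3.46, from 13.3 ± 0.32 (SD, n = 2) at 8 hours to 9.84 ± 1.15 (SD, n = 3) at 7 days (F test, limma, adjusted p = 0.0276). The call was lost without replicate 1 or 2 of 8 hours, replicate 3 of 4 days, or replicate 1 or 2 of 7 days (adjusted p of 0.0595 to 0.0795), and without both arrays that stood apart (0.0508). In the dorsal samples alone, 2 members were called over time, Hey1 (limma, adjusted p = 0.0379) and Hes1 (0.0135), against 3.45% of all genes, and the call of Hey1 was lost in 13 of 27 alternatives. That of Hes1 was lost without replicate 1 of 8 hours (adjusted p = 0.0786), under quantile normalization (0.0503) and with replicate number as a block (0.0579).

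Hes1, the Notch effector that represses proneural genes, was measured mainly in the early dorsal samples. Its dorsal level was 9.35 and 8.73 (8 hours), 7.72, 6.44 and 6.88 (1 day) and 7.81 and 9.28 (2 days), then between 6.19 and 6.95 at 4, 7 and 14 days, where it was well above background in no dorsal sample. Both dorsal samples of 8 hours lay above all 10 dorsal samples of 4 to 14 days, as did both of 2 days. In the dorsal samples Hes1 was thus measured 6.2-fold higher at 8 hours than at 14 days (means of 9.04 and 6.41, limma, adjusted p = 0.00894). It was the 1 member called between these times in the dorsal samples, against 1.48% of all genes. The fold is not exact, since no dorsal sample of 14 days was well above background. Against the dimmest signals that passed as above background there, the fold was 5.9, which is not a lower limit. Brighter signals could fail to pass, such as Dll3 at 7 in the dorsal sample of replicate 3 of 14 days. Values of a single colour are open to dye bias that varies between arrays. Without replicate 1 of 8 hours the adjusted p was 0.203, and without replicate 2 it was 0.0562. Over time in the mean of both walls, Hes1 missed the threshold (limma F test, adjusted p = 0.105). That mean was 7.03 and 9.67 on the 2 arrays of 2 days, and the lateral signal of the first was dim (6.24). Without either array, 2 days would keep 1 array with no spread of its own, so such a fit decides nothing here. In the lateral samples of 8 hours the Hes1 level was 6.2 and 8.22, of which the first was not well above background. That value lay below all 4 lateral values of 14 days (6.23 to 6.65), so no fold is given (log2 change -0.77 ± 0.8 SE, limma, adjusted p = 0.75). No member was called between 8 hours and 14 days in the lateral samples, where 2.16% of genes were.

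Hes5, the effector most closely tied to Notch signalling in neural stem cells, and Hes6 were bright in every sample. The dorsal level of Hes5 was 14.33 and 14.71 (8 hours), 15.9, 16.45 and 15.49 (1 day), 15.49 and 15.41 (2 days), 14.27, 13.88 and 12.28 (4 days), 13.73, 15.04 and 12.34 (7 days) and then 14.25, 12.37, 15.59 and 15.13 (14 days). Its lateral level was 13.72 and 12.52 (8 hours), 15.85, 13.85 and 14.03 (1 day), 13.16 and 13.89 (2 days), 12, 13.4 and 12.1 (4 days), 13.32, 13.33 and 12.27 (7 days) and then 11.29, 14.36, 14.98 and 13.89 (14 days). The time means of both walls were highest and lowest at the same times as those of Notch2, with the highest at 1 day (15.26 ± 0.56, SD, n = 3) and the lowest at 4 days (12.99 ± 0.73, SD, n = 3), but early and later samples overlapped and the test missed the threshold (limma, adjusted p = 0.213). The dorsal level of Hes6 was 13.2 and 13.89 at 8 hours and 13.25 to 15.89 later, and its lateral level was 14.75 to 16.41 over all arrays, so that its dorsal samples of 8 hours lay below both lateral ones (15.46 and 15.22). Hes6 ranged over 1.36 (limma, adjusted p = 0.263), with time means of 14.44 ± 0.16 (SD, n = 2) at 8 hours and 15.8 at 2 days. Its other probe, which followed it at r = 0.55, ranged over 3.2 between the same times and was called (adjusted p = 0.0134).

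Between the walls, Notch3 was the 1 member called as the mean of the 6 time points, against 2.38% of all genes and 1.29% called higher in the dorsal samples. It was higher in the dorsal samples by 1.34 ± 0.28 log2 units (SE), or 2.5-fold, and on 15 of 17 arrays (limma, adjusted p = 0.026). The 2 exceptions were replicate 3 of 4 days and replicate 1 of 14 days. At 7 days the measured difference was 4.75, 4.7 and 2.12 on the 3 arrays, where the dorsal samples (8.3 to 11.12) did not overlap the lateral ones (6.18 to 6.42). The lateral samples of replicates 1 and 3 were not well above background there, so their size is set by dim signals and is not an exact fold. The test at that time alone missed the threshold (3.86 ± 0.64 SE; limma, adjusted p = 0.108, with 0.0265% of all genes called). Erythroid markers (5 measured genes) differed between the walls at that time too, at 12.32 to 13.57 in the dorsal and 8.75 to 9.21 in the lateral samples. They did so as well at 8 hours (15.73 to 15.86 against 11 to 11.81), 1 day (12.88 to 13.34 against 8.4 to 12.81) and 2 days (12.59 to 13.3 against 8.28 to 8.65). Notch3 differed by 0.47 to 1.28, 1.34 to 1.79 and 0.64 to 1.46 on the arrays of these times. At 4 and 14 days the erythroid levels of the walls overlapped. The part of the erythroid markers was not tested. The difference of Notch3 kept its direction in all 28 alternatives, at 0.69 to 1.52. The call was lost in 11 of them, among these without either array of 8 hours or of 2 days, without replicate 1 of 4 days or replicate 1 or 2 of 7 days (adjusted p of 0.0516 to 0.0783), and with the authors' deposited value table (0.084).

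Hes5 was higher in the dorsal sample on 16 of 17 arrays, by 1.18 ± 0.33 (SE) on average, and Hey1 on 12 of 17, by 1.03 ± 0.44, and neither passed the threshold (limma, adjusted p = 0.0881 and 0.259). The exception for Hes5 was replicate 2 of 14 days, and without this array Hes5 was called (1.33; limma, adjusted p = 0.0237). Under median centring in place of loess the differences were 0.18 for Hes5 (adjusted p = 0.764) and 0.24 for Hey1 (0.766). Notch2 was higher dorsally on 11 of 16 arrays, by 0.74 ± 0.24 (adjusted p = 0.146), with both 2-day arrays (2.67 and 1.56) and all 3 of 1 day (0.59, 1.72 and 1.6) on that side. Hes6 and Dll3 leaned to the lateral side on most arrays. Hes6 was higher in the lateral sample on 14 of 16 arrays (-0.94 ± 0.24 SE; limma, adjusted p = 0.0649) and Dll3 on 14 of 17 (-0.96 ± 0.35; adjusted p = 0.184). With replicate number as a block the mean difference of Dll3 was 0.04 (adjusted p = 0.976).

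Notch1 (0.26 ± 0.27 SE), Dll1 (-0.39 ± 0.51), Jag1 (-0.46 ± 0.45) and Hes1 (0.44 ± 0.19) had smaller mean differences and adjusted p of 0.281 to 0.757 (limma). The members' median was 0.35, against 0.02 over all genes. Under median centring in place of loess, which moved the median of all genes to -0.21, Notch1 and Notch2 turned to -0.41 and -0.1, and Hes6 (-2.12; limma, adjusted p = 0.000641) and Dll3 (-1.67; 0.0212) were called. Radial glia and astrocyte markers stood on the dorsal side too: 5 of 10 were called higher in the dorsal samples, against 1.29% of all genes, and none lower. Their median difference was 1.18, and their part in the wall differences of Notch3, Hes5 and Hey1 was not tested.

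**Figure D3:**
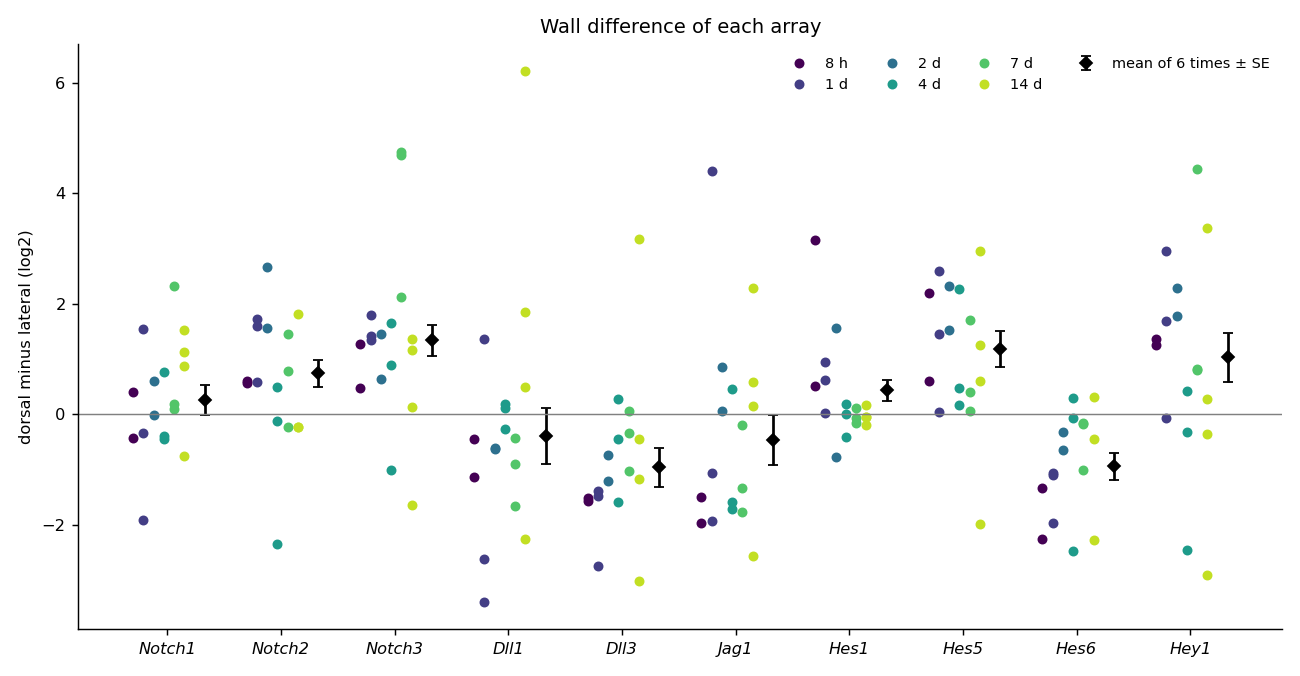
Dorsal minus lateral level (log2) of each member on each array, coloured by time, with the mean of the 6 time points and its SE as a black diamond. Notch3 lay above 0 on 15 of 17 arrays and Hes5 on 16, while Hes6 and Dll3 lay below 0 on 14 arrays each.

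No member passed a test of whether its wall difference changed with time. None of the 10 passed in the F test over the 6 times, which called 0.0985% of all genes, in the contrast of 4 to 14 days against 8 hours to 2 days (0.299%), or between 14 days and 8 hours (0.174%). None was called at 8 hours, 1, 2, 4, 7 or 14 days alone, where 0.378, 1.1, 0.181, 0, 0.0265 and 0.0227% of genes were. Notch3 had the widest range of time means of this difference, 3.6 (limma, adjusted p = 0.45), and Notch1 the narrowest, 1.1 (adjusted p = 0.983).

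The pathway was filled out with 57 other genes in 8 lists, all of them tested. Over time in the mean of both walls 4 of 57 were called, or 7.02%, against 7.48% of all genes: 2 of 6 further Hes, Hey and feedback targets (Hey2 and Nrarp), 1 of 8 inhibitors and turnover factors (Dtx4) and 1 of 4 Id factors (Id3). None of 7 other receptors and ligands, 9 glycosylation and ligand endocytosis genes, 9 processing proteases, 9 nuclear complex genes or 5 proneural factors was called in that test. Nrarp, a feedback inhibitor induced by Notch, had a mean of both walls of 9.2 and 8.91 (8 hours), 11.06, 10.87 and 10.35 (1 day), 8.91 and 9.53 (2 days), 7.18, 8.32 and 8.21 (4 days), 7.45, 7.05 and 8.02 (7 days) and then 9.31, 9.98, 10.79 and 10.31 (14 days) (F test, limma, adjusted p = 0.0017). All 4 arrays of 14 days, on a slide of their own, lay above all 3 of 7 days. Nrarp rose 6.03-fold in that step (log2 change 2.59 ± 0.4 SE, limma, adjusted p = 0.0108). It was the 1 gene of 57 called there, or 1.75%, against 0.651% of all genes. The lateral sample of replicate 1 of 7 days and the dorsal one of replicate 2 of 14 days were not well above background, so the fold is not exact.

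Hey2, whose promoter is shown above, took another course than Hey1. Its mean of both walls was 7.72 and 7.67 (8 hours), 6.1, 6.6 and 6.17 (4 days) and 8.02, 11.33, 11.55 and 9.96 (14 days), the highest time (limma, adjusted p = 0.0209). Every array of 14 days lay above every array of 8 hours to 4 days, but not above those of 7 days (7.86, 8.5 and 6.54). Most Hey2 samples of 1 and 4 days and the lateral one of replicate 1 of 14 days were not well above background. The arrays of 14 days also had a slide of their own. Dtx4, a ubiquitin ligase of the Deltex family (limma, adjusted p = 0.00683), had dorsal means of 14.52 ± 0.37 (SD, n = 2) at 8 hours and 11.62 ± 1.18 (n = 3) at 4 days. For Id3, an inhibitor of basic helix-loop-helix factors (limma, adjusted p = 0.0419), these means were 14.17 ± 0.68 and 10.73 ± 1.31. Unlike the receptors, Id3 was also low at 1 day, with a mean of both walls of 9.17, 9.08 and 11.12. That mean was 12.26 and 13.02 at 2 days and 9.78, 10.07 and 9.1 at 4 days. By 14 days it was 10.66, 12.72, 14.13 and 13.52. In the dorsal samples alone Nrarp and Hey2 were called over time (limma, adjusted p = 0.0216 and 0.0261), or 3.51% of the 57 against 3.45% of all genes. In the lateral ones Dlk2 was called (limma, adjusted p = 0.031), where 4.63% of all genes were. Between 8 hours and 14 days Dtx2 was called in the lateral samples (-3.55 ± 0.77 SE, limma, adjusted p = 0.0292). That was 1.75% of the 57 against 2.16% of all genes.

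Between the walls 4 of the 57 were called as the mean of the 6 times, or 7.02%, against 2.38% of all genes. Dner, a Delta-like protein of neurons and glia, was higher in the dorsal samples by 1.24 ± 0.21 log2 units (SE; limma, adjusted p = 0.011), Dtx3 by 0.93 ± 0.2 (0.0303) and Id4 by 0.7 ± 0.15 (0.0345). The glycosyltransferase Mfng, which alters how receptors answer ligands, was lower in the dorsal samples by a log2 difference of -1.12 ± 0.23 (0.0267).

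**Figure D4:**
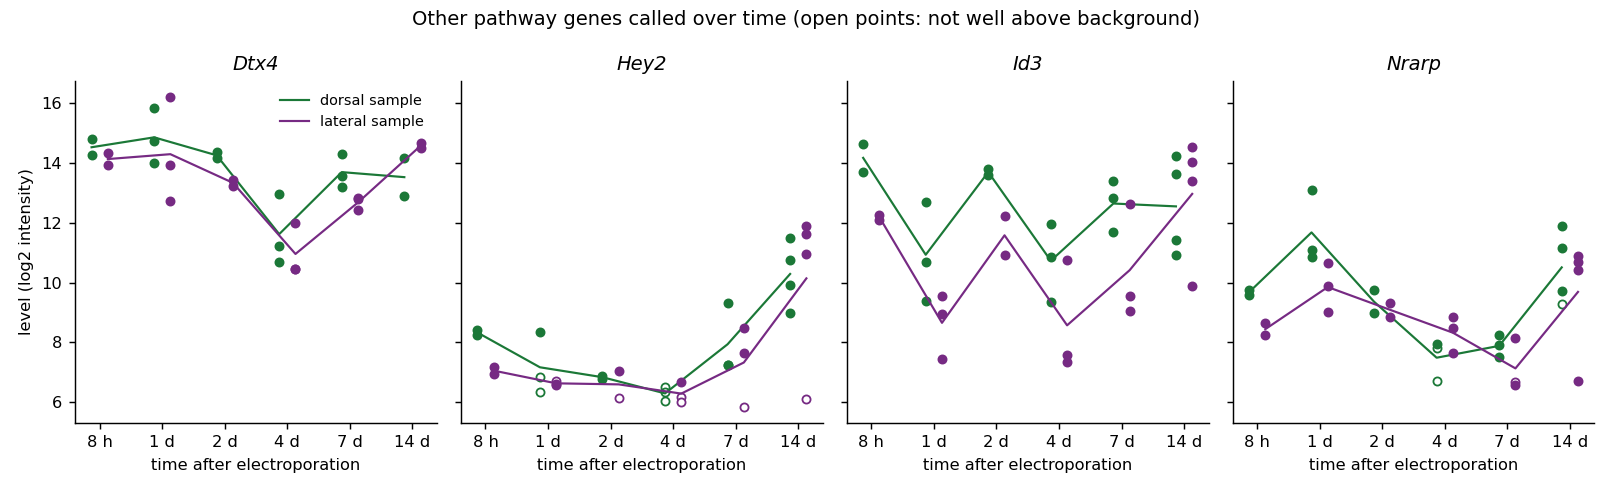
Level (log2 intensity) against time of the 4 other pathway genes called over time, in dorsal (green) and lateral (purple) samples; lines join the means and open points were not well above background. Nrarp was low at 4 and 7 days and higher at 14 days, and Hey2 was highest at 14 days.

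The genes whose levels ran most like each member were found by Pearson's r over the 34 samples, a description in which the 2 samples of an array share its slide. For Notch1 they were Gtse1 (0.82), Nmi (0.78) and Mansc1 (0.78). For Notch2 the nearest named genes were the glutamate transporter Slc1a2 (0.9), itself on the radial glia and astrocyte list, and Dock1 (0.86), after an unnamed transcript (0.99). Notch3 was nearest to Gsr (0.85), Hes5 to Zfp521 (0.82) and Nckap5 (0.8), and Hey1 to Ccdc80 (0.88), Ppp2r2b (0.85) and Megf10 (0.83). Hes6 was near Mcm7 (0.79) and Sf1 (0.79), and Hes1 near Ccdc146 (0.81) and Spag17 (0.76). Dll1 was near Prpf38a (0.78) and Rad21 (0.77), Dll3 near Psip1 (0.74) and Nup85 (0.73), and Jag1 near Spg20 (0.73), Lyrm4 (0.72) and Thyn1 (0.67).

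Among the members, Hey1 ran with Notch2 (0.72), Hes5 (0.62) and Notch3 (0.59), and Notch2 with Notch3 and Hes5 (both 0.67), over 32 to 34 samples. Notch3 also ran with Notch1 (0.65) and Hes5 (0.63). Hes6 ran with Dll3 (0.55). In the difference between walls, over 16 arrays, Hey1 and Notch2 also ran together (0.7), and so did Hes6 and Dll3 (0.59). The pairs of Notch3 did so less, over 16 or 17 arrays: -0.1 with Notch2, 0 with Hes5, 0.27 with Hey1 and 0.35 with Notch1. Dll1 and Dll3 had an r of 0.38 over all samples and 0.71 without both arrays that stood apart.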

How the data were processed

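Spot intensity (mean signal and median local background of each colour) was deposited by the authors as scanner output, made per the file headers by Agilent's scanner software (Feature Extraction 10.7.3.1 and, on some arrays, 10.5.1.1). The scanner's processed intensity, the log10 ratio deposited beside it, and the authors' deposited value table, which by comparison is log2 of the Cy3 to Cy5 ratio (r of 0.88 to 0.97 with the dorsal minus lateral values used here, medians of -0.1637 to 0.0459), served as alternatives or checks; the sources used here do not give its normalization. Per the labels' protocols, mRNA was isolated on magnetic beads and its cDNA amplified by an undisclosed global PCR service (SuperAmp), and equal amounts were labelled. The labels call the molecule polyA RNA for the dorsal and total RNA for the lateral sample. Amplification can distort levels, and changes in cell make-up enter the values.

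In limma 3.58.1 (R 4.3.3), background was corrected with normexp (offset 50), log ratios were normalized by loess and mean levels by quantiles between arrays (Aquantile). Control spots had weight 0, spots with an outlier flag (0.32 to 2.61%) were left out, and spots of a probe were averaged. The brightest probe by mean signal represented its gene. The filter asked for signal well above background in 1 colour or both on at least 2 arrays and left 26447 genes, or 26403 in comparisons with 14 days. Of 41174 probes, 26876 were named through an accession, 2894 through a symbol and 347 through a synonym of RefSeq's GRCm38.p6 annotation, and 11057 kept the files' name. Time means of the wall difference, of the mean of both walls and of each wall were fitted over all 17 arrays with lmFit and eBayes; p-values are two-sided, adjusted over all genes by Benjamini-Hochberg (threshold 0.05), and measure the spread between these arrays. The fits were tested on simulated data. Figures used matplotlib 3.10.9 under Python 3.11.15.

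The members, the gene lists and the tests were chosen with earlier results of these data known. All members are named; other pathway genes were named where called, except 1 result that is not reported here, and up to 3 genes per member by correlation. Replicate numbers were checked for pairing: arrays of the same number at other times had a mean r of 0.03 over 36 pairs (-0.13 to 0.32) in their deviations from the time means. At 2, 4 and 7 days the numbers also mark shared slides, and the 7 pairs that share both had a mean r of 0.09 (-0.01 to 0.32), of which 2 were over 0.1. The numbers were therefore not used to pair the arrays.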

Additional observations from a re-analysis of the deposited data

Results flagged for a closer look

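At 14 days, the 1 time with 4 arrays, 24 sets of 4 values were checked for a sample far from the other 3, of which chance would single out about 1 in 20. In 3 sets a sample stood out, and each time it was the lateral sample of replicate 2, an array that also stood apart over all genes. Its Dll1 level was 7.75, with the next at 10.67. Its Dll3 level was 13.48, with the next at 9.01, and its Jag1 level was 12.87, with the next at 10.14. Without this array and replicate 1 of 1 day, the lateral difference between 14 days and 8 hours was -2.64 for Dll3 (limma, adjusted p = 0.00107) and -1.81 for Jag1 (0.00908), and both were called. With all arrays neither was called, where 2.16% of all genes were. The Jag1 difference depended on the probe: with all arrays it was -1.09 with the main probe and 0.79 with the other, dimmer one.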

How the results depend on the processing

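No single value turned its sign while called: of 1538 recomputed values of single members, 1444 kept their side of the threshold, 57 lost a call and 37 gained one. The time courses of Notch1 and Notch3 were called in all 30 and 29 alternatives (adjusted p of 1.37e-06 to 0.0261 and 1.4e-05 to 0.0325), that of Hey1 was lost in 7 of 29 and that of Notch2 in 19 of 31 (among these without any 1 array of 8 hours, 1 day or 2 days, replicate 2 or 3 of 4 days, replicate 1 or 3 of 7 days or replicate 3 of 14 days).

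Members called between the walls as the mean of the 6 times numbered 1, against 0 with the scanner's processed signals, 0 with the deposited value table, 0 with a replicate block, 2 under median centring, 2 under quantile normalization, 2 without both arrays that stood apart, 3 with array weights, 5 with slide as a random block and 0 to 2 without 1 replicate. At single times the count was 0, with 1 (Hes6) under median centring and 0 to 1 without 1 replicate (Hes1 without replicate 2 of 8 hours, Notch3 without replicate 3 of 7 days). Over time in the mean of both walls it was 4, with 10 under array weights, 8 with slide as a random block and 2 to 4 without 1 replicate. In the steps it was 0, with 14 under array weights, 4 with the random block and 0 to 1 without 1 replicate (Hes1 without replicate 1 of 2 days, Notch3 without replicate 2 of 4 days, Hey1 without replicate 1 of 14 days). Between 8 hours and 14 days it was 1 in the dorsal samples, with 0 under a filter of 9 arrays (Hes1 left out), 2 with the random block and 0 to 1 without 1 replicate; in the lateral samples it was 0, with 2 without both arrays that stood apart, 2 with array weights, 1 with the random block and 0 to 1 without 1 replicate (Notch1 without replicate 1 of 1 day).

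Both weighting schemes raised calls over all genes, from 1976 over time to 18499 with array weights and 12892 with the random block, whose consensus correlations were below 0 (-0.17 to -0.24). All-gene calls between the walls went from 629 to 169 with the replicate block and 6113 under median centring, where 27.7% of calls were higher in the dorsal samples against 54.2%. Dorsal calls between 8 hours and 14 days went from 392 to 76 to 3716, and lateral ones from 571 to 256 to 3823. The replicate block, whose numbers mark shared slides only at 2, 4 and 7 days, lost Notch3 between the walls (adjusted p = 0.135), Notch2 over time (0.0681), Notch1 in the lateral samples (0.0606) and Hes1 in the dorsal ones over time (0.0579). Signal over background limits Hes1, whose levels were near background from 4 days on and give no exact fold.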
